A study of Mus musculus with 6 samples.

Results

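The hyaluronan, versican and aggrecan system was described by 10 genes that build, link, bind and degrade the hydrated matrix of the aortic valve. They were taken by gene symbol from the 46983 genes measured, with earlier results of these data known: Vcan and Acan (the core proteins versican and aggrecan), Hapln1 and Hapln3 (link proteins), Has1, Has2 and Has3 (hyaluronan synthases), Cd44 (a hyaluronan receptor), and Hyal1 and Hyal2 (hyaluronidases). The 2 large glycosaminoglycan (GAG) exons of Vcan were added from the 387776 distinct exons of the exon table. Aortic valves of wild type C57BL/6J mice, aged 2 days after birth (PND2) or 4 months, were profiled by RNA-seq in 3 pools at each age. Each pool held the valves of 5 to 6 mice, so differences between individual animals were averaged out, and the labels call the pools biological replicates. The 2 ages were the only groups, and the labels name no treatment.

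Hyaluronan is an unsulphated sugar polymer that synthases at the plasma membrane extrude into the matrix. Versican and aggrecan belong to the hyalectans, core proteins whose amino-terminal domain binds hyaluronan, whose central region carries chondroitin sulphate chains and whose carboxy-terminal domain binds other matrix proteins. Link proteins lock this complex, cell surface receptors tether it, and hyaluronidases cut the polymer. In heart valves this water-rich gel fills the cardiac cushions of the embryo and later forms much of the spongiosa, the middle layer of the leaflet.

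Values are RPKM, reads scaled to exon length and to the library's total, so levels of different genes can be set side by side. The library totals ran from 23810507 to 38994657. With 3 libraries against 3, the smallest p of a 2-sided exact permutation test over libraries is 0.1, and p-values measure the spread between these pools only. Fold changes and adjusted p-values are from limma on log2(RPKM + 0.1), fitted over the 25903 genes with at least 0.1 RPKM in 3 libraries and adjusted by Benjamini-Hochberg, and a gene is called at an adjusted p under 0.05. In pooled valves, fewer cells of a type and less RNA per cell cannot be told apart. Of 8 valve interstitial markers such as Dcn and Postn, 2 were called higher and 4 lower at 4 months, and their summed level was 6501 to 7152 RPKM at PND2 and 8033 to 10135 RPKM at 4 months. Markers of other cell types moved with age. Cardiomyocyte markers summed to 17292 to 19930 RPKM at PND2 and to 6912 to 10607 RPKM at 4 months, with 4 of 8 lower. All 6 smooth muscle markers were higher at 4 months (7200 to 8306 RPKM against 16478 to 27555 RPKM), and all 6 endothelial markers were lower (378 to 524 RPKM against 211 to 226 RPKM). Of 7 macrophage markers 5 were higher (231 to 283 RPKM against 462 to 606 RPKM), and of 6 adipocyte markers 5 were higher (63.8 to 147 RPKM against 322 to 1391 RPKM). Lymphocyte markers summed to under 4 RPKM in every library, and 2 of 5 Schwann cell markers were higher. No marker was at 0 in all libraries. Beside these counts and those of the lists below, 35.8% of all genes tested were called, 21.1% lower and 14.7% higher. The part of these cell types in the results was not tested.

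The gel-forming core proteins and the synthase Has2 were lower at 4 months, and the 2 hyaluronidases moved in opposite directions. Of the 10 genes, all of which passed the filter, 6 were called: Vcan, Acan, Hapln1, Has2 and Hyal2 fell and Hyal1 rose. Among all genes tested 35.8% were called, 21.1% lower and 14.7% higher. PND2 and 4 month values were fully apart for 7 of the 10, as they were for 50.0% of all genes tested. The median log2 fold change was -0.51 over the 10 genes and -0.14 over all genes tested. The study itself lists Vcan, Acan, Has2, Hyal1 and Hyal2, and genes of the other lists such as Tnc, among genes that changed in these libraries, so their directions are not independent evidence. RPKM are relative to each library's total. Scaling by the median log2 ratio of a library took the median of all genes tested to -0.02 and their split from 3810 higher and 5463 lower to 4601 higher and 4129 lower.

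**Figure D1:**
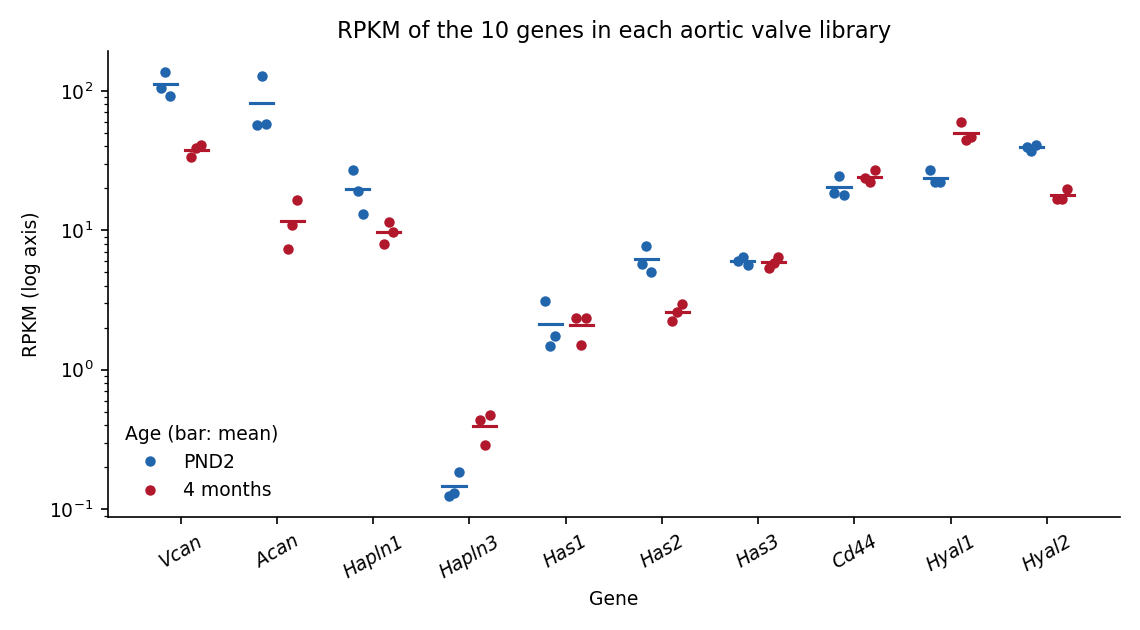
RPKM of the 10 genes in each library, on a log axis, with PND2 in blue, 4 months in red and a bar at the mean of the 3 libraries. Vcan, Acan, Hapln1, Has2 and Hyal2 lay lower in every 4 month library, Hyal1 and Hapln3 lay higher, and the ages overlapped for Has1, Has3 and Cd44.

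At PND2 the order of the mean levels was Vcan, Acan, Hyal2, Hyal1, Cd44, Hapln1, Has2, Has3, Has1 and Hapln3. The values of neighbours in this order overlapped between Vcan and Acan, between Hyal1 and Cd44, between Cd44 and Hapln1, and between Has2 and Has3. At 4 months the order was Hyal1, Vcan, Cd44, Hyal2, Acan, Hapln1, Has3, Has2, Has1 and Hapln3, and the neighbours that overlapped were Acan with Hapln1 and Has2 with Has1. This order moved when exons shared with other genes were set aside. On unshared exons Hyal1 stood at 19.4 ± 2.45 RPKM at PND2, with a mean below those of Cd44 and Hapln1 but overlapping values. At 4 months its 47.1, 32.7 and 31.9 RPKM overlapped with the 32.5, 37.5 and 39.9 RPKM of Vcan. Has3 on unshared exons lay at 1.94 ± 0.514 and 1.95 ± 0.320 RPKM, with a mean below that of Has1 at both ages but overlapping values, and no longer above Has2 at 4 months. Acan went from the second place to the fifth either way.

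Versican is the hyalectan of loose, growing and vascular tissue. Vcan (ENSMUSG00000021614, chr13:89655312-89742509 on the minus strand of mm10) had 105, 137 and 91.7 RPKM in PND2 replicates 1 to 3 and 33.3, 38.6 and 41.0 RPKM in those of 4 months. Every PND2 library was more than 2-fold above every 4 month library. The mean fell from 111 ± 23.0 to 37.6 ± 3.92 RPKM (SD, n = 3), 2.95-fold, or -1.55 on the log2 scale (SE 0.16, limma adjusted p = 5.39e-04). Leaving out single libraries gave -1.68 to -1.39. Between 13290 and 60273 reads per library lay behind these values.

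Vcan RNA is spliced in 4 coding forms that differ in their GAG-bearing region. Transcript models of GENCODE M21 (GRCm38, the mm10 assembly) give exon 7 of 15, GAG-alpha, 2880 bases at chr13:89702918-89705797, and exon 8, GAG-beta, 5217 bases at chr13:89688285-89693501. The form V0 (model Vcan-203) holds both exons, V1 (Vcan-206) only GAG-beta, V2 (Vcan-202) only GAG-alpha and V3 (Vcan-201) neither. The joins that tell these forms apart are shown because the exon values below turn on them, with 20 bases from each side, 5′ to 3′ in RNA direction, and with the bases of the GAG exons in capitals.
Exon 6 to GAG-alpha (V0, V2): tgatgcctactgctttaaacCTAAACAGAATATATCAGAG
GAG-alpha to GAG-beta (V0): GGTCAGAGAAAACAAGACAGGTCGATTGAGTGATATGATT
Exon 6 to GAG-beta (V1): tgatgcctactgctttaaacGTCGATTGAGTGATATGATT
GAG-alpha to exon 9 (V2): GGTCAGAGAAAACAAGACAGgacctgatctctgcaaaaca
Exon 6 to exon 9 (V3): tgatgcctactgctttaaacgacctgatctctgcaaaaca
The deposited tables count reads per exon, so reads on these joins were not counted here and the share of each form was not estimated.

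GAG-alpha had the largest difference between the ages among the exons of the V0 model. It had 29.8, 37.9 and 32.2 RPKM in the PND2 libraries and 5.47, 4.61 and 5.13 RPKM in the 4 month libraries, a 6.57-fold difference of means that rests on 316 to 3343 reads per library. GAG-beta had 132, 189 and 125 RPKM at PND2 and 42.8, 49.6 and 47.1 RPKM at 4 months, a 3.20-fold difference. Neither exon overlapped between the ages, and GAG-alpha stood below GAG-beta in every library.

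As a ratio of the 2 exons within a library, GAG-alpha stood at 22.5, 20.1 and 25.8% of GAG-beta at PND2 and at 12.8, 9.30 and 10.9% at 4 months. The 3 PND2 ratios lay above the 3 of 4 months, with means of 22.8 ± 2.86% and 11.0 ± 1.75% (n = 3, 2-sided exact permutation test, p = 0.1). On the log2 scale the ratio differed by -1.06, with a range of -1.17 to -0.94 when single libraries were dropped. Against exon 6, which lies just upstream and is part of all 4 forms, GAG-alpha went from 46.7 ± 3.72% to 24.0 ± 6.79% (exact permutation p = 0.1), whereas GAG-beta against exon 9, just downstream, went from 39.1 ± 1.01% to 35.9 ± 3.44% (exact permutation p = 0.3).

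Against the median of the other 28 Vcan exons that passed the filter, use of GAG-alpha differed by -0.99 and that of GAG-beta by 0.07 on the log2 scale (n = 3 per age, exact permutation p = 0.1 and 0.6). With limma's diffSplice, which sets each exon against the other exons of its gene, GAG-alpha had a usage difference of -1.17 and was not called (adjusted p = 0.0850 over 243348 exons), and with weights from the recovered reads it was -1.21 and called (adjusted p = 0.00108). Lower use was called for 0.708% of all exons and 0.563% of the 1955 internal coding-gene exons of at least 2000 bases without weights, and for 0.289% and 3.48% with them. GAG-beta was not called in either (usage difference -0.10 and -0.12). Reads thinned toward the 5′ end of Vcan at both ages, where exons 2 to 6 stood at 25.1 ± 3.13% of exons 9 to 14 at PND2 and 21.3 ± 4.63% at 4 months (exact permutation p = 0.2). The 4 month to PND2 ratio ran from 0.245 to 0.313 over exons 1 to 6 and from 0.340 to 0.434 over exons 9 to 15, with GAG-beta at 0.312 and GAG-alpha at 0.152. A short exon's RPKM is raised by reads that only reach into it, so exon values compare the ages and not short with long exons.

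**Figure D2:**
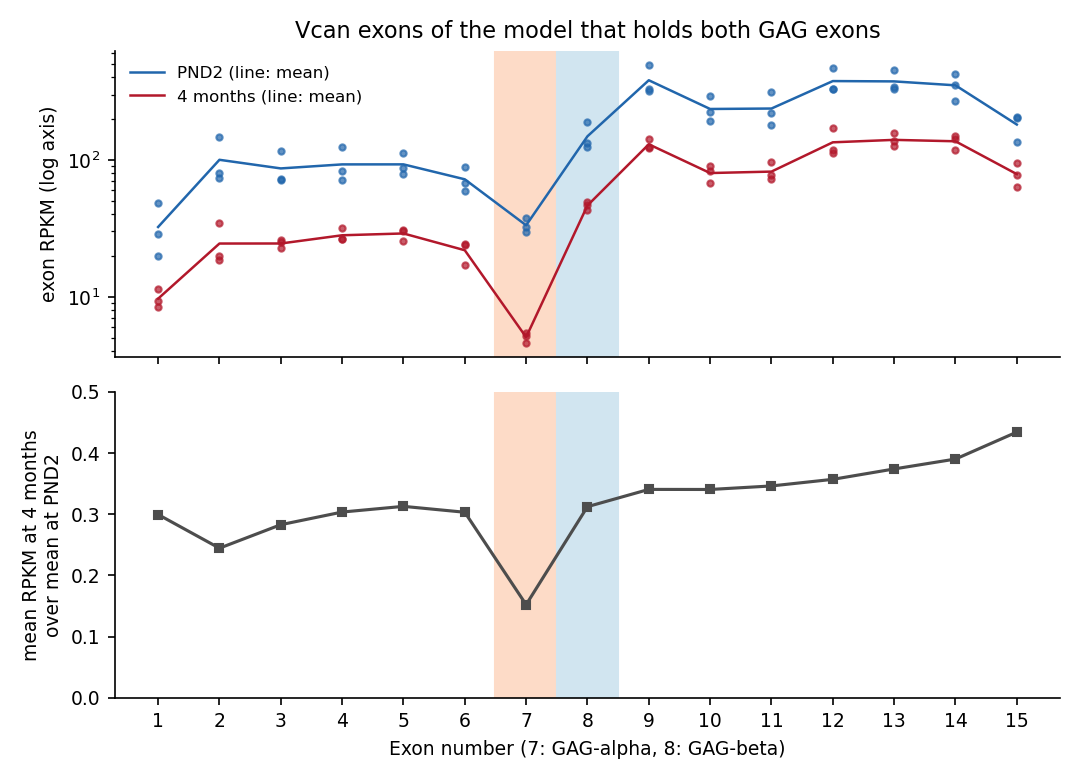
Upper panel, RPKM of each exon of the Vcan model with both GAG exons in each library (points) and the mean per age (lines), on a log axis, and lower panel, mean at 4 months over mean at PND2. The ratio lies between 0.245 and 0.434 for every exon except GAG-alpha, where it is 0.152.

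Aggrecan is the large hyalectan best known from cartilage. Acan (ENSMUSG00000030607, chr7:79053483-79115099 on the plus strand) had 57.2, 129 and 58.2 RPKM at PND2 and 7.36, 10.9 and 16.6 RPKM at 4 months. The second PND2 library stood more than 2-fold above the other two, and all 3 were above every 4 month library. The mean fell 7.02-fold, from 81.4 ± 41.0 to 11.6 ± 4.64 RPKM, the largest difference of the 10 genes (-2.77 on the log2 scale, SE 0.39, limma adjusted p = 0.00188). Leaving out single libraries gave -3.06 to -2.38. Its longest internal exon, exon 12 of 17 with 3483 bases at chr7:79097752-79101234, encodes most of the chondroitin sulphate region. Use of this exon against the median of the other Acan exons went from 0.35 ± 0.09 to 0.84 ± 0.08 on the log2 scale (n = 3, exact permutation p = 0.1), and diffSplice did not call it (usage difference 0.43, adjusted p = 1.00). This rise was not particular to exon 12. The 4 month to PND2 ratio ran from 0.0849 to 0.126 over exons 2 to 11 and from 0.116 to 0.178 over exons 13 to 17, with exon 12 at 0.151. Exon 17 had a larger diffSplice usage difference, 0.58.

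Cartilage markers went both ways beside Acan, and those named here were picked after their values were seen. Of 13 such genes 11 were tested, and 4 were lower and 4 higher at 4 months. Col9a1, Col9a2, Col9a3 and Col11a1, which encode cartilage collagen chains, fell with log2 fold changes of -3.67, -4.61, -2.62 and -3.20. At PND2 each of these 4 was highest in the second library, as Acan was. So were Col2a1, Col11a2, Comp, Chad, Sox9 and Sox5 of the list, none of which was called lower. Sox6 was the only tested gene of the list that was not. The other collagen genes on the list did not fall with the 4. Col11a2 rose from 5.15 ± 2.41 to 16.9 ± 8.94 RPKM (log2 fold change 1.66, limma adjusted p = 0.0222). Col2a1 was not called (3.08 ± 2.02 and 5.95 ± 9.25 RPKM, limma adjusted p = 0.793). The summed level of the list rose from 70.5 to 136 RPKM at PND2 to 317 to 1091 RPKM at 4 months. This was mostly through Comp (10.6 ± 3.26 to 377 ± 239 RPKM) and Chad (4.43 ± 2.65 to 231 ± 131 RPKM), whose products bind collagen. Their part in the Acan result was not tested.

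Acan was a smaller part of the hyalectans at 4 months. It made up 35.0, 48.5 and 38.7% of the summed RPKM of Vcan, Acan, Ncan and Bcan at PND2 and 16.9, 19.8 and 25.3% at 4 months (n = 3 per age, exact permutation p = 0.1). Vcan made up 64.5, 51.5 and 60.9% and then 76.4, 70.1 and 62.6%, with overlap between the ages (exact permutation p = 0.2). The ratio of Vcan to Acan was 1.84, 1.06 and 1.57 at PND2 and 4.53, 3.55 and 2.48 at 4 months. The genes of the other hyalectans and link proteins were all below 1 RPKM at PND2. Brevican (Bcan), a hyalectan best known from brain, rose from 0.587, 0.00806 and 0.614 RPKM to 2.74, 5.44 and 7.65 RPKM, or by 3.72 on the log2 scale (limma adjusted p = 0.00901), and by 2.82 without PND2 replicate 2, which held 1 read. With a pseudocount of 1 the Bcan value was 2.11. Neurocan (Ncan) stayed at or below 0.245 RPKM and the link proteins Hapln2 and Hapln4 at or below 0.348 RPKM in every library, and none of these 3 was called (adjusted p of 0.224, 0.668 and 0.512).

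Link proteins hold the hyalectan on hyaluronan. Hapln1 (ENSMUSG00000021613, chr13:89540636-89611832, plus strand) had 26.8, 19.2 and 13.1 RPKM at PND2 and 7.96, 11.5 and 9.66 RPKM at 4 months. The ages did not overlap, but the lowest PND2 and the highest 4 month library were close. The mean fell 2.03-fold from 19.7 ± 6.89 to 9.70 ± 1.76 RPKM (-0.97 on the log2 scale, SE 0.26, limma adjusted p = 0.0265). The call was lost without PND2 replicate 1 or 2 and without 4 month replicate 1 or 3 (limma adjusted p of 0.0512, 0.0650, 0.0745 and 0.0714), and with libraries scaled by their median ratio (0.0615), 1 of 5 other settings that lost it. Hapln1 lies 43479 bases from Vcan on the same chromosome.

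Hapln3 (ENSMUSG00000030606, chr7:79115102-79131018, minus strand) was near the limit of detection. It had 0.124, 0.131 and 0.185 RPKM at PND2 and 0.434, 0.287 and 0.472 RPKM at 4 months, from 17, 14 and 19 reads and 57, 24 and 48 reads. All 4 month values were above all PND2 values, with a log2 fold change of 1.00 (95% interval 0.21 to 1.80), but the gene was not called (limma adjusted p = 0.0553). It was called with libraries scaled by their median ratio (adjusted p = 0.0355) and in 4 other alternatives, and the size of the change depended on the pseudocount, at 0.28 with 1 and 1.37 with 0.01 in place of 0.1. Its 3′ end lies 2 bases from that of Acan on the other strand, and its last exon held 10, 13 and 14 of those reads at PND2 and 44, 22 and 18 at 4 months. Hapln1 made up 97.8 ± 1.19% of the summed RPKM of the 4 link proteins at PND2 and 93.0 ± 2.42% at 4 months (n = 3, exact permutation p = 0.1).

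The promoters of Vcan and Acan, the 2 core proteins that fell together, and of the neighbours Hyal1 and Hyal2, which moved in opposite directions, are shown from 250 bases before to 50 bases after the RefSeq start (GRCm38.p6), 5′ to 3′ in the direction of the gene. Capitals mark a CCAAT box (CCAAT) or a GC box (GGGCGG), read on both strands, with overlapping matches run together.
Vcan, chr13:89742463-89742762, minus strand: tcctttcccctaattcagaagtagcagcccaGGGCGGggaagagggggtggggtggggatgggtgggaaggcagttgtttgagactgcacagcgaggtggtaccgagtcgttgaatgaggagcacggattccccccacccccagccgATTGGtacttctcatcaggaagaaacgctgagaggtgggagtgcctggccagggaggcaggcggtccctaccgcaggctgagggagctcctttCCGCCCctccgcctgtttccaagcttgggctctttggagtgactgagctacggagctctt
Acan, chr7:79052976-79053275, plus strand: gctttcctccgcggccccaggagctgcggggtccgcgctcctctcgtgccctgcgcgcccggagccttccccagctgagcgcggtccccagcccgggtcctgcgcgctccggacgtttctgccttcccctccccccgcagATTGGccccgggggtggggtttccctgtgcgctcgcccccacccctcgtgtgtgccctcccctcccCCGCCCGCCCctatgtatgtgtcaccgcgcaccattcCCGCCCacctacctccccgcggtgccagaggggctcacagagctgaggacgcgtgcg
Hyal1, chr9:107576700-107576999, plus strand: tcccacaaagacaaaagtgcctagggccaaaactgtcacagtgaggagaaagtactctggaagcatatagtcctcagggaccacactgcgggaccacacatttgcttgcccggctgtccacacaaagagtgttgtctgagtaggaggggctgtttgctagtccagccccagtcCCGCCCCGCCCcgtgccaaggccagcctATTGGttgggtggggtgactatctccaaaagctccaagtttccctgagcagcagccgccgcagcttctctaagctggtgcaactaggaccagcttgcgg
Hyal2, chr9:107568913-107569212, plus strand: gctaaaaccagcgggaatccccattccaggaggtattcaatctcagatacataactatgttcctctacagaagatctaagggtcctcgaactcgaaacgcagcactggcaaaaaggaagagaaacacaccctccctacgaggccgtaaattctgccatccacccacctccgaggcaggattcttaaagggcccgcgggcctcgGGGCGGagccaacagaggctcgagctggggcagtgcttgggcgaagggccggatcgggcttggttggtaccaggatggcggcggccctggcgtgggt
Vcan and Acan both hold ATTGG, the CCAAT box on the other strand, starting 103 and 110 bases before the start, and both hold GC boxes. So does Hyal1, which rose, with ATTGG starting 49 bases before the start and GC boxes. Of the 8 members with a promoter in the table, 4 hold a CCAAT box and 5 a GC box, against 37.4% and 35.7% of all 32851 promoters. TATAAA was found in Hapln3 alone of the 8 (13.6% of all promoters), as was AACAAT (10.7%), and CACGTG and TGANTCA in none (7.15% and 7.81%). These are letters in a window and not sites shown to be bound.

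Of the 3 synthases, Has2 alone was called. Has2, the synthase that the embryonic heart needs to form cushions, has its gene (ENSMUSG00000022367) at chr15:56665627-56694539 on the minus strand. It had 5.75, 7.73 and 5.04 RPKM at PND2 and 2.24, 2.58 and 2.95 RPKM at 4 months. No PND2 library overlapped the 4 month range, and the mean fell 2.38-fold from 6.17 ± 1.40 to 2.59 ± 0.355 RPKM (-1.21 on the log2 scale, SE 0.21, limma adjusted p = 0.00486). It overlaps the antisense gene Has2os in 1 of its exons, and on its other exons the mean fell 2.41-fold.

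Has1 (ENSMUSG00000003665, chr17:17843328-17855188, minus strand) had 3.10, 1.49 and 1.75 RPKM at PND2 and 2.36, 1.51 and 2.36 RPKM at 4 months. The ages overlapped, and the interval of the log2 fold change of 0.02 was wide (95% interval -0.76 to 0.79, limma adjusted p = 0.976). The sign of this value turned with the library left out, from -0.19 to 0.32.

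Has3 (ENSMUSG00000031910, chr8:106870242-106884566, plus strand) had 6.07, 6.48 and 5.59 RPKM at PND2 and 5.35, 5.86 and 6.44 RPKM at 4 months. Its values overlapped, with a log2 fold change of -0.04 (95% interval -0.38 to 0.30, limma adjusted p = 0.855) that was 0.081 when libraries were scaled by their median ratio. Most of its reads lay where another gene runs. The last annotated exon, 352 bases at chr8:106884215-106884566, is shared with exons of Chtf8 on the opposite strand, carried 69.3 to 81.5 RPKM and held 63.4 to 77.0% of the Has3 reads, while Chtf8 itself stood at 46.2 to 59.4 RPKM. On the other Has3 exons the level was 2.35, 2.10 and 1.36 RPKM at PND2 and 1.61, 2.00 and 2.25 RPKM at 4 months, again with overlap.

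The make-up of the synthases therefore depended on how Has3 was counted. From the deposited gene values, Has2 was 42.8 ± 5.66% of the summed synthase RPKM at PND2 and 24.5 ± 1.76% at 4 months, and Has3 was 42.4 ± 2.44% and 55.8 ± 2.73%. On exons shared with no other gene, Has2 was 51.0, 68.3 and 62.3% at PND2 and 36.7, 41.3 and 39.0% at 4 months, and Has3 was 18.7 ± 2.32% and 29.6 ± 3.87%. Either way the Has2 share was lower in every 4 month library (n = 3, exact permutation p = 0.1), and on the unshared exons Has2 was the most abundant synthase in every PND2 library. The sum of the 3 synthases on unshared exons was 11.1, 11.3 and 8.26 RPKM at PND2 and 6.27, 5.98 and 7.56 RPKM at 4 months (exact permutation p = 0.1).

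**Figure D3:**
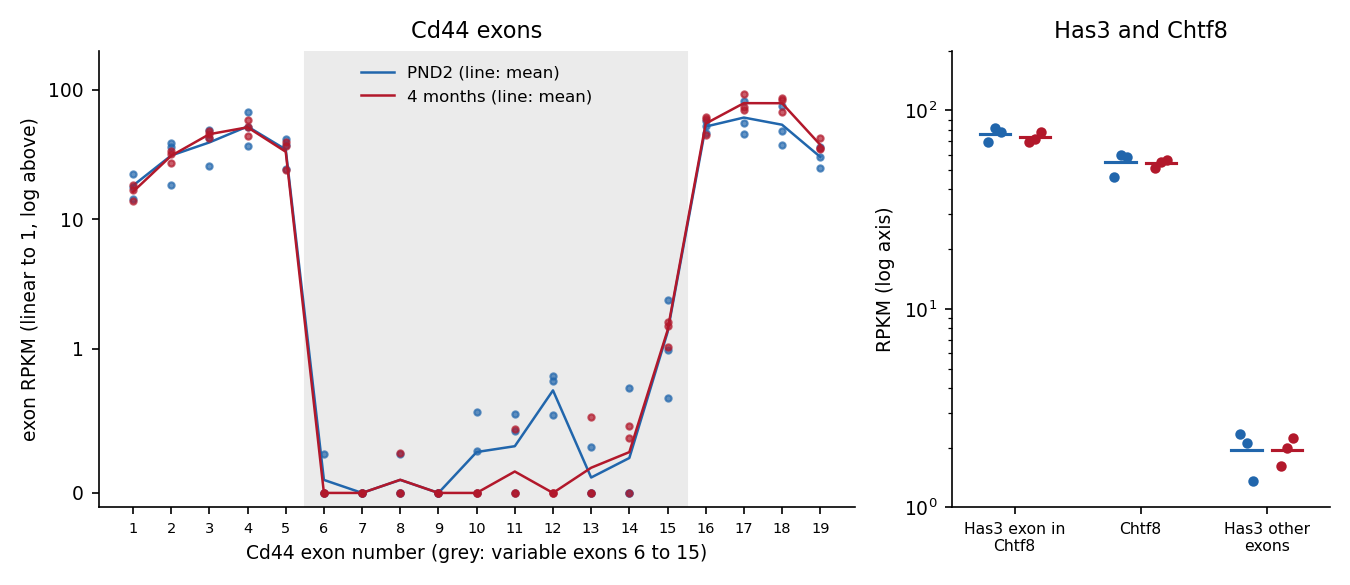
Left, RPKM of Cd44 exons 1 to 19 in each library (points) with the mean per age (lines, blue for PND2 and red for 4 months), on an axis that is linear up to 1 and logarithmic above. Right, RPKM of the Has3 exon that overlaps Chtf8, of Chtf8 and of the other Has3 exons on a log axis, where the first stands near 75 and the last near 2 at both ages.

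Cd44 is the widespread cell surface receptor for hyaluronan. Cd44 (ENSMUSG00000005087, chr2:102811141-102901665, minus strand) had 18.6, 24.6 and 18.0 RPKM at PND2 and 23.6, 22.3 and 26.9 RPKM at 4 months. The ranges overlapped, and the log2 fold change of 0.26 (95% interval -0.08 to 0.61) was not called (limma adjusted p = 0.213).

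The variable exons of Cd44 held few reads at either age. These 10 exons, numbers 6 to 15 of 19, can be spliced in between exons 5 and 16. The direct join is shown because the exons outside the variable region held nearly all the reads. It is printed with 20 bases from each side and no variable base, and reads on it were not counted.
Cd44 exon 5 to exon 16: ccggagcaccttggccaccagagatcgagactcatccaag
Variable exons 6 to 14, 1038 bases together, held 6, 10 and 5 reads at PND2 and 4, 1 and 2 reads at 4 months, while the 7 constitutive exons on both sides held 793 to 1469 reads. Their level was 0.433 ± 0.109% of the median RPKM of the constitutive exons at PND2 and 0.132 ± 0.0420% at 4 months (n = 3, exact permutation p = 0.1), a difference that rests on few reads. Exon 15 was the variable exon with most reads, at 2.75 ± 1.40% and 2.79 ± 0.974% of the constitutive level (exact permutation p = 1). 

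The other receptors differed in size and direction. Hmmr, a hyaluronan-binding protein of the mitotic spindle and a proliferation marker, fell from 6.48, 5.88 and 3.20 RPKM to 0.360, 0.479 and 0.414 RPKM (log2 fold change -3.30, limma adjusted p = 4.01e-04). Lyve1, the receptor of lymphatic endothelium and some macrophages, had 119, 39.3 and 55.0 RPKM at PND2 and 35.3, 32.4 and 33.4 RPKM at 4 months. The first PND2 library stood far above the rest, and Lyve1 was not called (log2 fold change -0.91, limma adjusted p = 0.0866). Without that library the log2 fold change was -0.46 and not called, and without PND2 replicate 2 it was -1.26 and called (limma adjusted p = 0.0230). The scavenger receptors Stab1 (56.2 ± 12.8 to 44.6 ± 4.50 RPKM) and Stab2 (0.318 ± 0.145 to 0.165 ± 0.0163 RPKM) and the lectin Layn (14.6 ± 0.949 to 17.7 ± 2.80 RPKM) were not called either (adjusted p of 0.184, 0.262 and 0.158).

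Hyal1 and Hyal2 lie 4147 bases apart on chromosome 9, on one strand, and changed in opposite directions. Hyal2 encodes the hyaluronidase anchored at the cell surface, which cuts long chains to fragments. Hyal2 (ENSMUSG00000010047, chr9:107567945-107572779, plus strand) had 39.7, 37.2 and 41.0 RPKM at PND2 and 16.8, 16.7 and 19.8 RPKM at 4 months. It fell 2.21-fold, from 39.3 ± 1.95 to 17.8 ± 1.78 RPKM, with the smallest SE and the smallest adjusted p of the 10 genes (-1.14 on the log2 scale, SE 0.11, limma adjusted p = 3.50e-04).

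Hyal1 encodes the lysosomal hyaluronidase that cuts those fragments further. Hyal1 (ENSMUSG00000010051, chr9:107576927-107581710, plus strand) had 27.0, 22.3 and 22.3 RPKM at PND2 and 59.9, 44.4 and 46.3 RPKM at 4 months. Every 4 month library was above every PND2 library, and the mean rose 2.10-fold from 23.9 ± 2.70 to 50.2 ± 8.47 RPKM (1.06 on the log2 scale, SE 0.14, limma adjusted p = 0.00169). Some of its exons are shared with Hyal3 and Nat6, whose models run through the locus. On its 2 exons shared with no other gene the level was 21.0, 16.6 and 20.5 RPKM and then 47.1, 32.7 and 31.9 RPKM, a 1.92-fold rise. Hyal3, whose enzyme activity is weak, was not called from its gene value (log2 fold change 0.32, limma adjusted p = 0.275), and on its own 3 unshared exons it stood at 0.891 ± 0.691 and 0.504 ± 0.218 RPKM, with the opposite sign and with overlap between the ages.

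Hyal1 made up 40.5, 37.5 and 35.2% of the summed RPKM of the pair at PND2 and 78.2, 72.6 and 70.0% at 4 months (n = 3, exact permutation p = 0.1). The shares on unshared exons were 32.9 ± 1.93% and 67.2 ± 6.11%. The sum of both was 63.2 ± 3.62 RPKM at PND2 and 68.0 ± 7.95 RPKM at 4 months and overlapped between the ages (exact permutation p = 0.5).

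**Figure D4:**
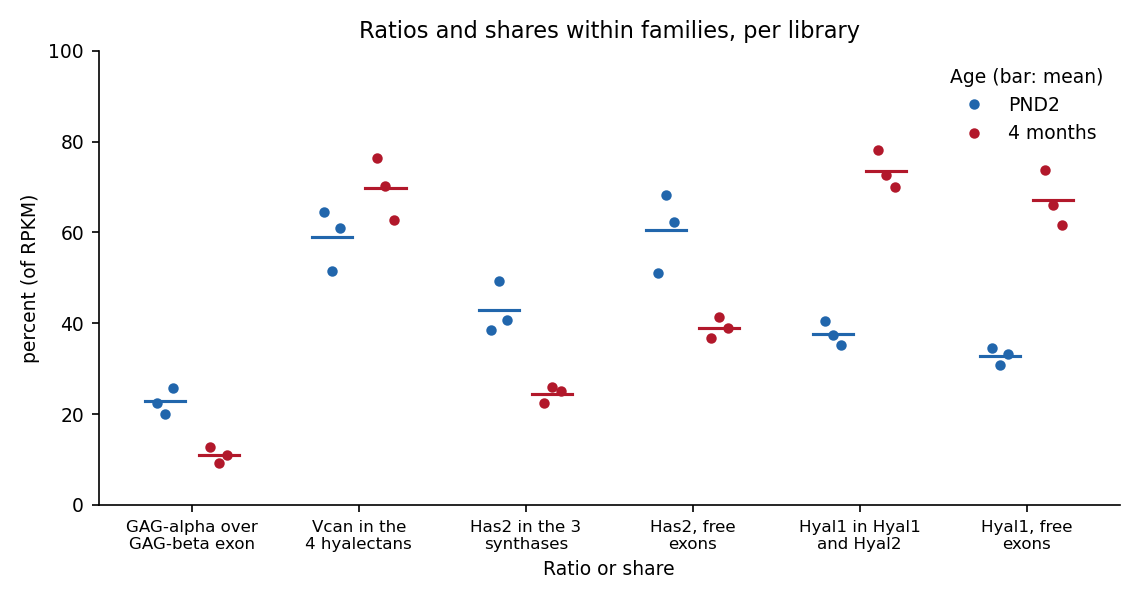
Percent in each library (points, bar at the mean, blue for PND2 and red for 4 months) of the GAG-alpha over the GAG-beta exon of Vcan and of Vcan, Has2 or Hyal1 in the summed RPKM of its family, with Has2 and Hyal1 also on exons shared with no other gene. Of the values drawn, those of the Vcan share overlap between the ages, and the Hyal1 share moves from near 38 to near 74%.

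Among the other proteins that degrade hyaluronan the largest change was that of Cemip, a hyaluronan-binding protein needed for its breakdown by fibroblasts. Cemip fell from 4.13, 4.15 and 3.51 RPKM to 0.114, 0.261 and 0.709 RPKM (-3.34 on the log2 scale, SE 0.47, limma adjusted p = 0.00196). Of the 7 genes on this list 3 were tested, Cemip was called and Hyal3 and the membrane hyaluronidase Tmem2 were not, Tmem2 with 20.9 ± 0.378 and 16.4 ± 1.92 RPKM (limma adjusted p = 0.0502). Hyal5 and Spam1, which encode hyaluronidases of sperm, were listed at 0 in all 6 libraries.

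Among the genes listed for hyaluronan cross-linking, 2 rose and 1 fell. Itih2, a heavy chain of inter-alpha-inhibitor that is transferred onto hyaluronan, rose from 0.627, 0.583 and 0.742 RPKM to 43.0, 44.2 and 42.4 RPKM, 66.4-fold (5.86 on the log2 scale, SE 0.14, limma adjusted p = 4.71e-06). Itih4, a related protein, rose from 16.5, 19.1 and 35.6 RPKM to 240, 176 and 204 RPKM (log2 fold change 3.19, limma adjusted p = 2.91e-04). Both rises were far larger than the spread within either age. Ptx3, a pentraxin that organises heavy chains on hyaluronan, fell from 27.3 ± 8.62 to 10.5 ± 4.14 RPKM (log2 fold change -1.39, limma adjusted p = 0.0112), and Tnfaip6, the enzyme that transfers heavy chains, did not pass (6.18 ± 1.24 and 6.41 ± 2.13 RPKM, adjusted p = 0.960). Of the 8 genes 6 were tested, 2 were higher, 1 was lower and 3 were not called. Ambp and Itih1, the genes not tested, stayed below 0.05 RPKM in every library. Whether the product of Itih4 is linked to hyaluronan was not tested.

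Of 7 genes for the supply of nucleotide sugars 1 was called. Gfpt2, an enzyme that makes glucosamine 6-phosphate for amino sugar synthesis, rose from 9.51, 8.73 and 7.64 RPKM to 33.5, 35.0 and 35.2 RPKM (2.00 on the log2 scale, SE 0.11, limma adjusted p = 5.28e-05). The other 6 genes, among them Ugdh, which makes UDP-glucuronic acid (log2 fold change -0.07, 95% interval -0.30 to 0.16), were not called. Of 22 genes for chondroitin chain synthesis and sulphation 21 were tested, 3 were higher and 3 lower. Ust, a uronyl 2-sulphotransferase (log2 fold change 0.94, limma adjusted p = 0.0314), and Chst12, a chondroitin 4-sulphotransferase (0.78, adjusted p = 0.0131), rose and Chst15, which adds a second sulphate to the galactosamine (-0.82, adjusted p = 0.00806), fell. The Ust call was lost with 5 of the 6 libraries left out in turn, all but PND2 replicate 1. Chsy1 and Chst14, both lower, kept their call in 1 of these 6 fits each. Csgalnact2, which was higher, kept it in all 6.

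Proteases that cleave hyalectans split by member. Adamts20, Adamts9 and Adamts8 fell, from 2.07 ± 0.473 to 0.254 ± 0.117 RPKM, from 9.12 ± 0.380 to 2.53 ± 0.278 RPKM and from 48.6 ± 8.12 to 16.3 ± 5.45 RPKM (limma adjusted p of 0.00148, 2.44e-04 and 0.00226). Adamts1 and Adamts5, the 2 of the 7 that rose and named here after their values were seen, went from 54.0 ± 2.00 to 104 ± 21.7 RPKM and from 13.6 ± 1.19 to 21.6 ± 3.28 RPKM (log2 fold changes 0.92 and 0.66, limma adjusted p of 0.00366 and 0.00983). In all, 4 were lower, 2 higher and 1 not called. Adamts4, the remaining lower gene, kept its call in 1 of the 6 fits with a library left out.

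Matrix proteins that bind the carboxy-terminal domain of versican also split. Fbln2, Fbn1 and Tnc, encoding fibulin 2, fibrillin 1 and tenascin C, fell from 314 ± 48.0 to 72.2 ± 7.73 RPKM, from 220 ± 35.1 to 101 ± 1.47 RPKM and from 60.0 ± 14.5 to 9.38 ± 4.23 RPKM (log2 fold changes -2.11, -1.11 and -2.73, limma adjusted p of 1.02e-04, 8.74e-04 and 9.31e-04). Fbln1, encoding fibulin 1, rose from 70.3, 82.5 and 95.6 RPKM to 309, 239 and 301 RPKM (log2 fold change 1.77, limma adjusted p = 2.52e-04). Tnr was at or below 0.187 RPKM and was not called (limma adjusted p = 0.961). Over the 8 lists of other genes of the system 58 of 65 were tested, 10 were higher and 13 lower, a share of 39.7% called, near the 35.8% of all genes tested, with a median log2 fold change of -0.02.

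**Figure D5:**
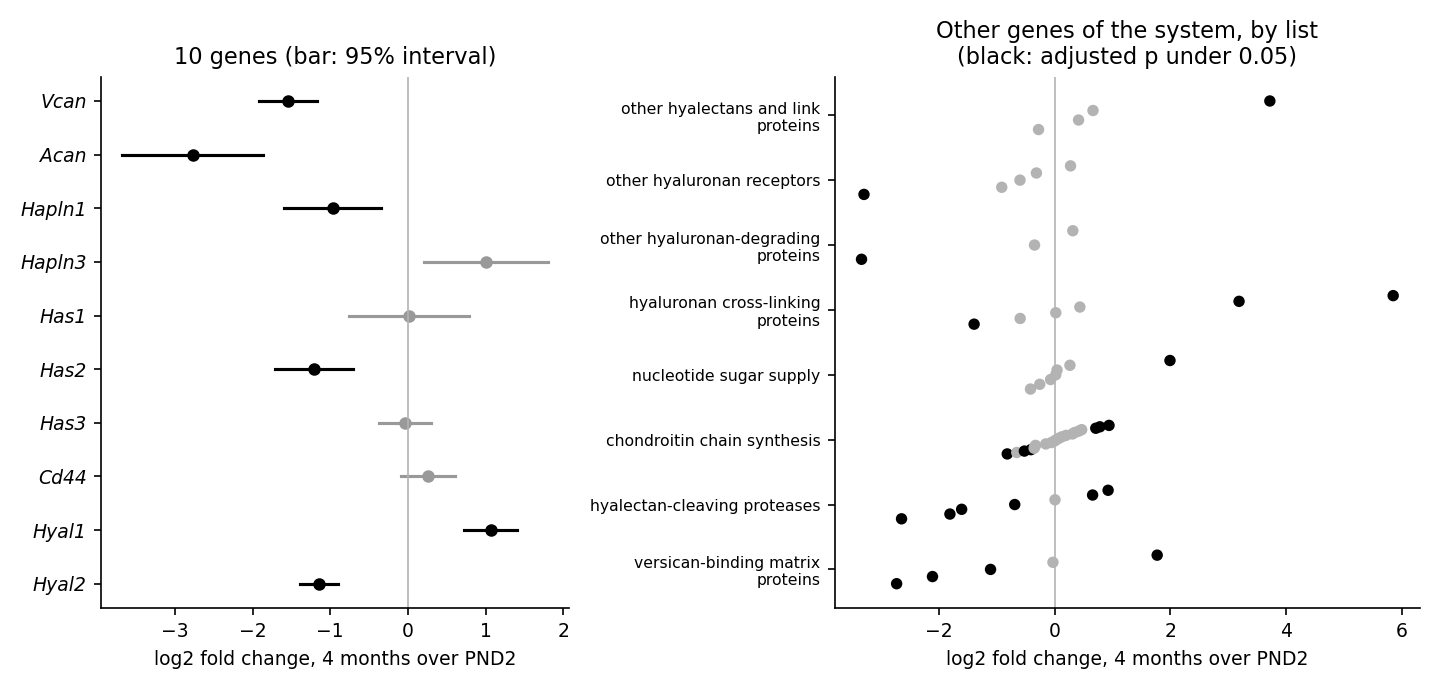
Log2 fold change of 4 months over PND2 for the 10 genes with 95% intervals (left) and for the tested genes of the 8 other lists (right), with genes called at an adjusted p under 0.05 in black and the others in grey. The changes among the 10 genes run from -2.77 for Acan to 1.06 for Hyal1, and those of the other lists from -3.34 for Cemip to 5.86 for Itih2.

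Genes nearest in pattern over the 6 libraries were found by the root mean square difference of log2(RPKM + 0.1), centred per gene, among 14215 genes with a mean of at least 5 RPKM. For Vcan these were Slc7a5, an amino acid transporter (0.09), Snai2, a transcription factor of mesenchymal cells (0.14), and Cited4 (0.15). For Has2 they were Gm27300, Atad2 and Gm27335 (0.07, 0.08 and 0.08), for Hapln1 Cep83, Gm13007 and Ms4a4a (0.16, 0.19 and 0.19), for Has1 Trnp1, Gm6947 and Ms4a6c (0.08, 0.10 and 0.14), and for Cd44 St6galnac2, Slc6a6 and Gga3 (0.06, 0.07 and 0.07). Gm27300 and Gm27335 had the same RPKM in PND2 replicate 3 and in every 4 month library, so they may not be separate likenesses. These likenesses are descriptions, and the nearest genes share the 6 libraries with the member.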

How the data were processed

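The authors isolated RNA from pooled aortic valves, made stranded libraries, trimmed 50 nt paired reads, aligned them to mm10 with TopHat2 2.1.0 and counted reads per Ensembl gene and exon in R 3.2.2. The deposited RPKM are these counts divided by exon length and library total. Whether counting used strand is not given in the sources used here. Reads were recovered as RPKM times length times total, and 100% were whole within 0.01. They sum over genes to 2.31 to 2.36 times the library totals. On average these sums exceed the number of reads per sample that the study gives, so a read can be counted more than once. Whether a total or a count is of reads or of pairs is not given in the sources used here, so printed read counts are in the authors' counting unit. RPKM were analysed as log2(RPKM + 0.1) in limma 3.58.1 (R 4.3.3, trend, Benjamini-Hochberg), and exons with at least 1 RPKM in 3 libraries with its diffSplice. Shares and ratios were tested with 2-sided exact permutation tests. In simulated data the gene test called 100% of 4-fold and 63% of 2-fold changes and 20 of 26276 unchanged genes. In simulated data the exon test made 924 calls in unchanged genes among 245017 exons without weights and 5 with weights. The simulated counts had the same spread for every gene and exon, smaller than that of Vcan, Acan, Hapln1, Has1, Has2 and Cd44 at PND2. Gene changes were planted only above a mean of 1 RPKM. These figures therefore do not give error rates for these libraries.

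The 10 members and all lists were chosen with earlier results of these data known. All 10 were named. From each list the called genes among the 3 largest changes with a mean of at least 1 RPKM at one age were named, and lists of up to 5 genes in full. Hyal3, Tmem2, Tnfaip6, Ambp, Itih1, Ugdh, Adamts1, Adamts4, Adamts5 and the cartilage genes were named after their values were seen. So were Chsy1, Chst14 and Csgalnact2. Exons sharing a base with another gene's exon were set aside in a check chosen after seeing the data. Alternatives covered pseudocount, filter, scaling, test, replicate block, read floor and single libraries left out.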

Additional observations from a re-analysis of the deposited data

How the results depend on the processing

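Vcan, Acan, Hyal1 and Hyal2 kept their direction and call in the 11 other settings of the gene test and with each of the 6 libraries left out. The members called higher were 2 rather than 1 without the trend, with median scaling, with quantile normalization, with voom on recovered reads and with values up to 10 reads floored, each time through Hapln3 (limma adjusted p of 0.0144, 0.0355, 0.0470, 0.0159 and 0.0182). Those called lower were 3 rather than 5 with a per-gene unequal-variance test, which lost Hapln1 and Has2 and called 3408 rather than 9273 genes in all. Hapln1 was also lost without the trend, with values floored, with median scaling and with the replicate block (limma adjusted p of 0.0526, 0.0709, 0.0615 and 0.0501), leaving 4. With single libraries left out, 4 to 5 members were called lower and 1 higher. Has3 changed sign with median scaling (0.081) and voom (0.058) and ran from -0.11 to 0.025 with libraries left out, and Has1 from -0.19 to 0.32. The GAG-alpha usage difference by diffSplice was called with voom weights (-1.21) and with a pseudocount of 1 (-1.04, adjusted p = 0.0260 by limma), and ran from -1.29 to -1.07 with libraries left out, called without PND2 replicate 2 or 4 month replicate 1. Against summed reads of the other exons it was -1.39. GAG-beta usage, 0.07 against the median exon, was -0.11 against the gene, -0.33 against summed reads and -0.20 against exons 9 to 14, a reference added after seeing the data. The change in the Acan share was -13.5 rather than -20.1 percentage points without division by length, and that of the Has1 share 10.6 rather than 4.85 on unshared exons and 1.77 without division by length. With single libraries left out the Has1 value ran from 2.18 (without PND2 replicate 2; 2.82 without 4 month replicate 1) to 7.85 (without PND2 replicate 1), and that of the Vcan share, 10.8, was 7.01 without PND2 replicate 2. The cause was not tested. Deviations from the mean of the age correlated at r of 0.0439, -0.0608 and -0.160 between libraries of the same replicate number. Between libraries of different numbers r ran from -0.176 to 0.233. With 3 libraries per age this cannot show whether the numbers pair the libraries. With a replicate block 7167 genes were called, and Hapln1 was at -0.97. Depth limits Hapln3 and the variable exons of Cd44, where few reads were counted.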
